A study of Mus musculus with 18 samples.

Results

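The nuclear genes for subunits of the mitochondrial oxidative phosphorylation complexes were followed through spleen RNA of mice on control and high fat diets. Members were the gene symbols of the Nduf (a, b, c, s and v series), Sdh, Uqcr, Cox (4 to 8) and Atp5 families that averaged 1 FPKM or more in 1 or more of the groups. FPKM counts fragments per unit of transcript length and of library size, so that levels can be compared between genes. Of 19326 gene symbols 87 matched and 86 reached the level, 39 in complex I, 4 in complex II, 8 in complex III, 18 in complex IV and 17 in complex V. The symbol left out was Ndufa11b, at 0 in every library. Cox8c and Cox7b2 reached the level through the control group only, with control means of 1.54 and 1.10 FPKM, so that a difference from control is built into their choice.

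Oxidative phosphorylation takes place in the inner mitochondrial membrane. Complexes I and II pass electrons from NADH and succinate to ubiquinone, complex III passes them on to cytochrome c and complex IV to oxygen, and complex V, the ATP synthase, uses the proton gradient that complexes I, III and IV build to make ATP. Most subunits are encoded in the nucleus and a few in mitochondrial DNA, and several subunits of complex IV exist as general forms and as forms found in muscle, lung or testis. In the spleen, lymphocytes, macrophages and developing red cells all carry these complexes, while mature red cells lose their mitochondria. The mitochondrially encoded subunits are not analysed here.

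The 18 libraries came from spleens of 10-week-old mice of the outbred ICR stock, 3 in each of 6 groups. The groups were untreated controls, mice given AOS at 10 mg/kg (AOS is read here as alginate oligosaccharide), mice on a high fat diet (HFD), mice on the diet and given AOS at 10 mg/kg (HFD+AOS), and mice on the diet that received a faecal microbiota transplant, either from donors given AOS at 10 mg/kg (HFD+AOS-FMT) or from control donors (HFD+control-FMT). The question named for the series was whether the transplant acts on the spleen of mice on the diet. Nothing in the labels says which animal, cage, litter or batch a library came from, so p-values measure the spread between these libraries, which may in part be technical.

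Many of these genes are known targets of nuclear respiratory factor 1 (NRF-1), of GABP, a factor of the ETS family, and of YY1. RefSeq promoters of GRCm38.p6, from 250 bases before to 50 bases after the start, were found for 69 of the 86 members. The NRF-1 motif, GCGCA followed by any base and GCGC, searched like the others on both strands, stood in 24.6% of the members' promoters, in 11.1% of those of tested genes and in 5.19% of those of all genes with a promoter. The ETS motif CCGGAAG stood in 23.2% of the members, in 19.5% of tested genes and in 9.93% of all genes, and the YY1 motif AAGATGG in 15.9%, 8.25% and 7.28%. At least 1 of the 3 motifs stood in 55.1% of the members, 33.7% of tested genes and 20.03% of all genes. By complex it was 11 of 15 promoters in complex V, 17 of 33 in complex I, 4 of 13 in complex IV and 3 each of 3 and 5 in complexes II and III. The ETS and YY1 motifs can share the letters AAG. A match is a description of the letters only, and a window without a match says nothing about a factor. The stretches below were chosen to show 1 member of each complex, among them Uqcr11 and Atp5e, the members of complexes III and V with the largest SD between libraries. Each is a stretch with no annotated exon, written 5′ to 3′ on the gene's strand, with the motif letters in capitals.
Ndufb4, chr16:37654530-37654618, minus strand, bases 250 to 162 before the start: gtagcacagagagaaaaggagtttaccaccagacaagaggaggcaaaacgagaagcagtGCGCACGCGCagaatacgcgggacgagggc
Sdhd, chr9:50603869-50603909, minus strand, bases 60 to 20 before the start: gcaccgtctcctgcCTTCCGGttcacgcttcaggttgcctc
Uqcr11, chr10:80406861-80406960, minus strand, bases 139 to 40 before the start: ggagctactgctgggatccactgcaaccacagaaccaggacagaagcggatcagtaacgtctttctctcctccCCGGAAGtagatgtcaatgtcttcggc
Cox6a1, chr5:115349046-115349129, minus strand, bases 171 to 88 before the start: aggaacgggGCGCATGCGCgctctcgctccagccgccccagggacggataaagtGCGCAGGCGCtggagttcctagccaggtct
Atp5e, chr2:174464177-174464276, minus strand, bases 175 to 76 before the start: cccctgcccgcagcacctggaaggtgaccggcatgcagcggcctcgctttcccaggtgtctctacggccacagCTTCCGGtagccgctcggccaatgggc
The capitals mark an NRF-1 match in Ndufb4, 2 NRF-1 matches in Cox6a1, and an ETS match, read on 1 strand or the other, in Sdhd, Uqcr11 and Atp5e.

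The subunit genes stood among the more abundant transcripts of the spleen. Their median level over the 18 libraries was 95.2 FPKM, against 12.2 FPKM over all 12969 tested genes (those averaging 1 FPKM or more in any group). Of the members 40, or 46.5%, averaged 100 FPKM or more, compared with 5.77% of tested genes. Median levels per complex were 70.0 FPKM for complex I, 59.5 for complex II, 114 for complex III, 122 for complex IV and 189 for complex V. By median FPKM over its subunits, complex V was the highest in each of the 18 libraries, and complex III stood above complex IV in 4 of them. By the mean of log2(FPKM + 1), to which the weakly expressed forms count fully, complex V was again the highest and complex IV the lowest in every library.

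Within complex I, which oxidises NADH, levels ran from 0.955 FPKM for Ndufb4b to 370 FPKM for Ndufa4. Ndufa4 is grouped here by its symbol but is now regarded as a subunit of complex IV, and Ndufb4b and Ndufb4c (18.3 FPKM) are copies of Ndufb4 (156 FPKM) whose reads cannot be told apart with certainty. The catalytic core was carried at moderate levels, with means of 33.4 FPKM for Ndufs1 and 39.5 FPKM for Ndufv1, and 97.5 FPKM for Ndufs7. Some accessory subunits, such as Ndufa3 (302 FPKM), Ndufb8 (153 FPKM) and Ndufb7 (141 FPKM), stood above them. The median of all 39 genes was 70.0 FPKM, below Ndufs7. Supernumerary subunits of this kind surround the core and are needed for its assembly and stability.

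The 4 genes of complex II, the succinate dehydrogenase shared with the tricarboxylic acid cycle, lay close together. Their means were 78.3 FPKM for the iron-sulfur subunit Sdhb, 60.5 FPKM for the flavoprotein Sdha, 58.4 FPKM for Sdhc and 54.6 FPKM for the second membrane anchor Sdhd. In complex III the hinge protein Uqcrh was the highest at 283 FPKM and Uqcrq the lowest at 45.7 FPKM. Its core protein Uqcrc1 stood at 91.3 FPKM and the Rieske iron-sulfur protein Uqcrfs1 at 65.8 FPKM.

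Complex IV held the widest range. General forms stood high, with Cox8a at 509 FPKM, Cox6a1 at 462 FPKM, Cox4i1 at 372 FPKM and Cox5a at 185 FPKM. The forms known from muscle, lung or testis stood far lower, with Cox6b2 at 27.0 FPKM, Cox6a2 at 7.58 FPKM, Cox8b at 1.44 FPKM, Cox4i2 at 1.14 FPKM, Cox7a1 at 1.06 FPKM, Cox8c at 0.281 FPKM and Cox7b2 at 0.214 FPKM. As a share of the FPKM of both forms, averaged over the 18 libraries, Cox6b2 made up 7.20%, Cox6a2 1.62%, Cox7a1 1.07% and Cox4i2 0.306%. In complex V the catalytic beta subunit Atp5b led at 435 FPKM and its partner alpha subunit Atp5a1 stood at 252 FPKM. The 3 genes for the identical ring subunit c were all expressed, with Atp5g2 at 51.7% of their sum, Atp5g1 at 24.5% and Atp5g3 at 23.8%. Atp5s, at 6.16 FPKM, is a coupling factor rather than a structural subunit.

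**Figure D1:**
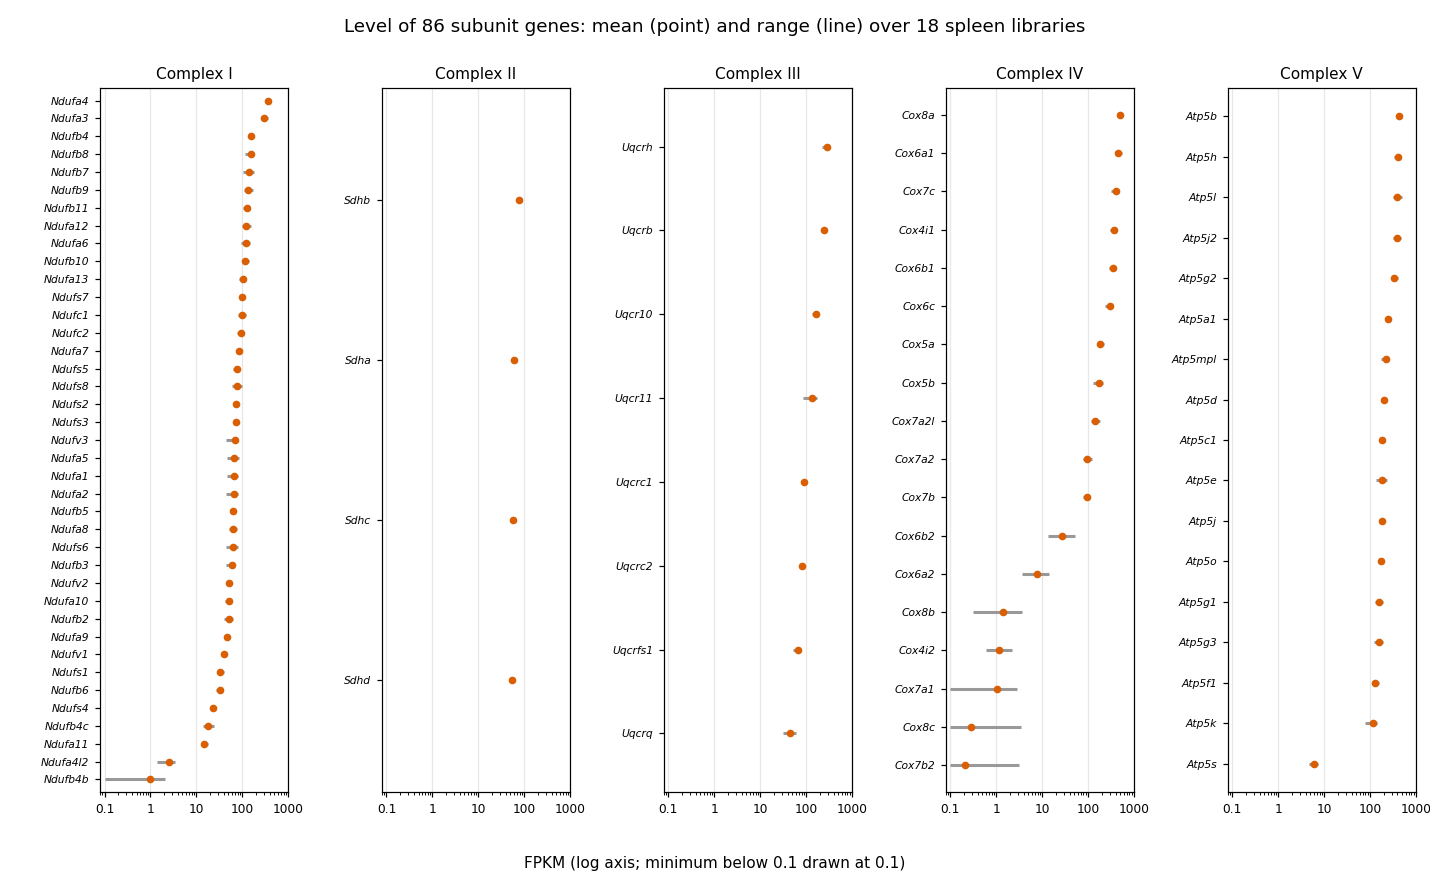
Level of each of the 86 subunit genes in FPKM on a log axis, by complex. Points are means over the 18 libraries and lines run from the lowest to the highest library (values under 0.1 drawn at 0.1). Most members hold a narrow range near 100 FPKM, while the tissue-restricted forms of complex IV sit below 30 FPKM with long lines.

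Between libraries most members varied little. The SD of log2(FPKM + 1) over the 18 libraries had a median of 0.142 among the members and 0.163 among all tested genes; for genes averaging 10 FPKM or more it was 0.138 for the 77 members and 0.143 for all. The most even member was Ndufs4 (SD 0.067), a complex I subunit of the electron input arm. The weakly expressed Cox7a1 (0.588) and Ndufb4b (0.560) had the largest SDs. Among members averaging 10 FPKM or more Cox6b2 came first (0.475), followed by Uqcr11 (0.292) and Atp5e (0.269), both small subunits.

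Libraries differed in the mean over all members. The mean of log2(FPKM + 1) over all 86 members was 6.40, 6.36 and 6.04 in the control libraries 1, 2 and 3. It was 6.33, 6.37 and 6.32 with AOS, and 6.22, 6.17 and 6.16 on HFD. It was 6.37, 6.23 and 6.15 in HFD+AOS, 6.34, 6.27 and 6.21 in HFD+AOS-FMT, and 6.34, 6.26 and 6.17 in HFD+control-FMT. The controls therefore spanned the whole range of the other groups, with the highest and the lowest library of all, and the 3 AOS libraries all lay above the 3 HFD libraries. Control 1 was the highest library for 31 members (36.05%, against 13.7% of tested genes), and control 3 the lowest for 33 members (38.4%, against 7.59%). Control 1 was also the lowest library for 33.8% of tested genes, the largest such share of any library, but for 3.49% of members.

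Libraries of this series also differed in red cell and other content. B cell markers summed to between 1435 and 2876 FPKM and T cell markers to between 170 and 444 FPKM, both lymphocyte types that a spleen holds. Haemoglobin genes took 10.8% to 34.4% of a library's FPKM, and since FPKM divides by the whole library, all other genes share the rest. Neutrophil markers summed to 15240 FPKM in control 1, 4153 in control 2 and 813 in control 3, and to between 379 and 1438 FPKM in the other 15 libraries. Within-group correlations of log2 values across tested genes (which are not independent) ran from 0.951, between controls 1 and 3, to 0.992.

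The order of libraries within groups was compared with their haemoglobin share. In at least 3 of the 6 groups, 34.9% of members ranked the 3 libraries in the order of their haemoglobin share, compared with 11.9% of tested genes. In at least 4 groups it was 16.3% of members and 4.31% of tested genes. Cox4i1, the general form of the regulatory subunit 4, did so in 5 groups. Haemoglobin, depth and RNA quality come from the same libraries, and their part in this order was not tested. In bulk RNA, fewer cells of a type and less RNA per cell cannot be told apart.

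**Figure D2:**
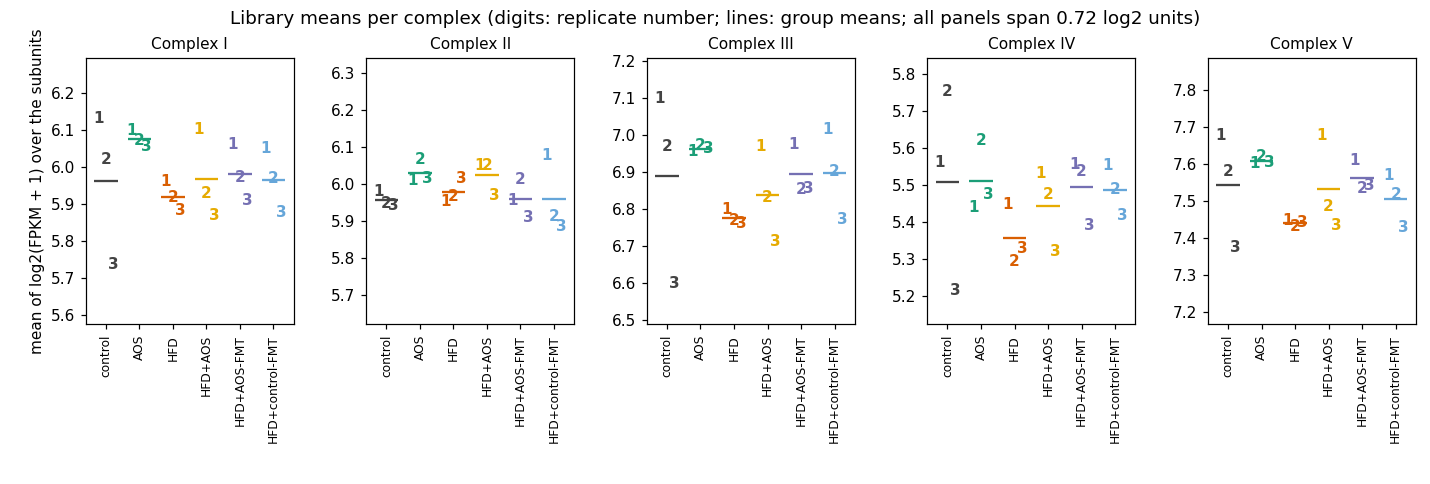
Mean of log2(FPKM + 1) over the subunit genes of each complex in each library. Digits are replicate numbers, lines are group means, and all panels span the same height. Control 3 lies lowest in complexes I, III, IV and V, the AOS libraries lie close together, and complex II runs from 5.88 to 6.08 only.

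The diet alone was compared with control. No member passed the test (limma on log2(FPKM + 1), 1 fit to all libraries, Benjamini-Hochberg adjusted p under 0.05 over all tested genes), while 2.75% of tested genes did. An unadjusted p under 0.05 was reached by 6 members (6.98%) and by 28.6% of tested genes. The fitted log2 fold change was below 0 for 65 of 86 members, with a median of -0.06 over members and 0.10 over tested genes. Medians per complex were -0.05 in complex I, 0.01 in complex II, and -0.08 in each of complexes III, IV and V. In 2 members (2.33%) every HFD library was higher than every control library, compared with 14% of tested genes, and in 2 members every one was lower, compared with 5.44%. Scaled by median ratios to the typical gene, which moves the median of all genes from 0.10 to 0.00, the median over members was -0.18, with 7 of 86 above 0.

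This comparison changed with the control library left out. Without control 3, 14 members (16.3%) were called, all lower on HFD, and the median over members was -0.17. In the same fit 29.3% of all tested genes were called, and 9.89% were called as lower on HFD. The 14 members were Atp5e, Atp5g1, Atp5k, Cox6b2, Cox7b2, Cox7c, Cox8c, Ndufb7, Ndufb8, Ndufb9, Ndufb10, Ndufs6, Uqcr11 and Uqcrq, of which Cox7b2 and Cox8c had entered through their control values. Without control 1 the median was 0.00, and no member and no tested gene was called.

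Atp5k, the subunit e of ATP synthase that helps its dimers form (chr5:108433244-108434448, GRCm38), had the clearest values on the diet. It stood at 113, 131 and 103 FPKM in the controls and at 95.3, 95.3 and 78.0 FPKM on HFD. Every HFD library was below every control library, and also below every library of the other 4 groups, which ran from 99.4 to 142 FPKM. Its log2 fold change was -0.37 (SE 0.14, adjusted p = 0.109), short of the threshold. Uqcr11, a small subunit of complex III (chr10:80402997-80406830), stood at 177, 156 and 94.9 FPKM in the controls and at 117, 107 and 87.1 FPKM on HFD. These groups overlapped through control 3 (log2 fold change -0.42, SE 0.20, adjusted p = 0.173).

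Ndufa3, an accessory subunit of the membrane arm of complex I (chr7:3617373-3620327), lay the other way. It stood at 338, 305 and 254 FPKM in the controls and at 337, 339.9 and 369 FPKM on HFD, so that the groups overlapped (log2 fold change 0.23, SE 0.09, adjusted p = 0.114). In the 3 treated groups on the diet it ran from 264 to 313 FPKM, below every HFD library. Its annotated exons share 4 bases with Tfpt on the other strand, and whether strand entered the counting is not given in the sources used here.

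**Figure D3:**
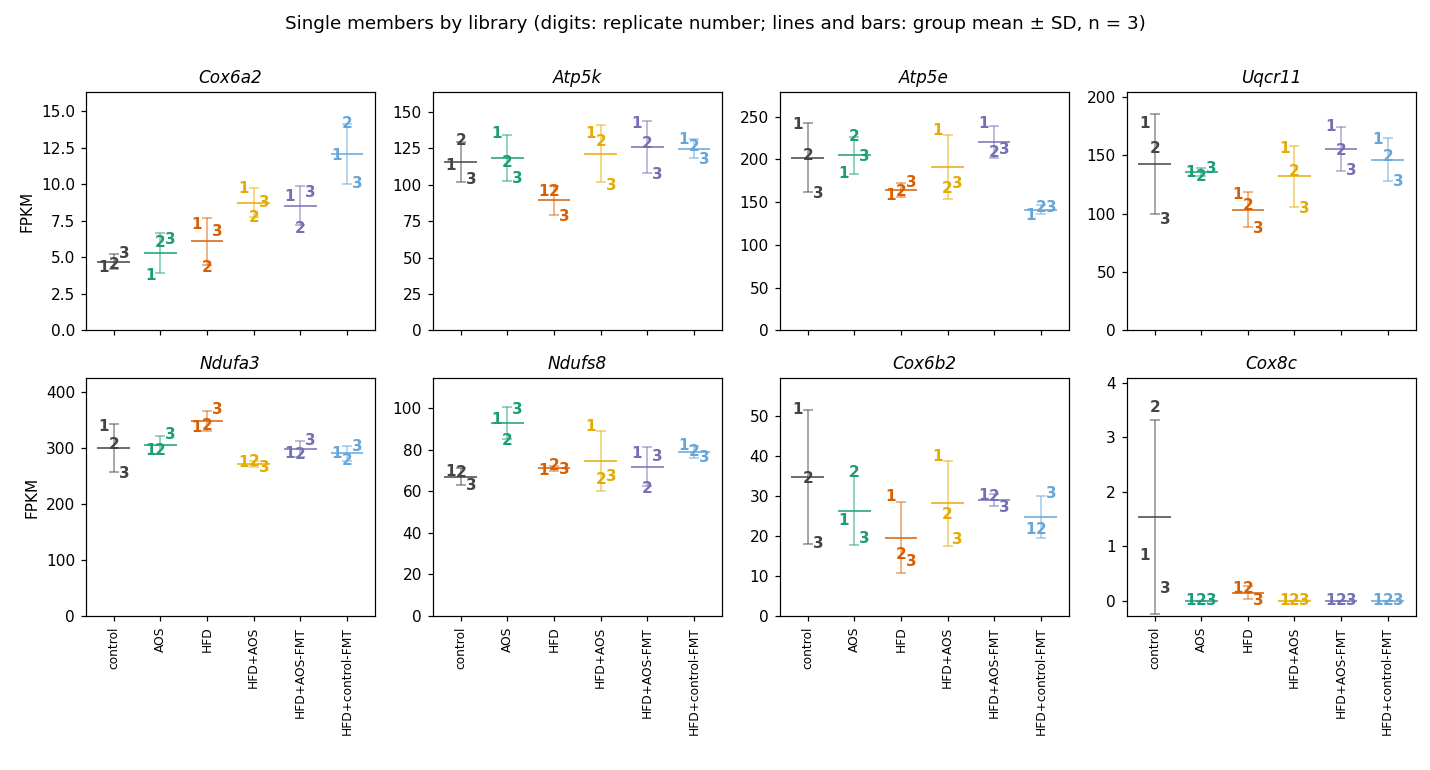
FPKM of 8 members in each library on linear axes. Digits are replicate numbers, and lines and bars are group means ± SD (n = 3). Cox6a2 is lowest in control and highest in HFD+control-FMT, Atp5k is lowest and Ndufa3 highest on HFD, Atp5e is lowest in HFD+control-FMT, and Cox8c stands out in control 2.

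AOS alone was compared with the same control libraries. No member passed the test, nor did any tested gene (0%). An unadjusted p under 0.05 was reached by 8 members (9.3%) and by 15.4% of tested genes. The log2 fold change was above 0 for 73 of 86 members, with a median of 0.09 over members and 0.05 over tested genes. In 12 members (14.0%) every AOS library was above every control library, close to the 11.7% of tested genes, and in 1 member, Cox8c, every one was below, compared with 5.1%. The median was -0.03 without control 3 and 0.16 without control 1.

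Ndufs8, which holds iron-sulfur clusters in complex I (chr19:3908863-3912774), stood at 69.6, 69.3 and 62.7 FPKM in the controls and at 94.5, 84.5 and 99.7 FPKM with AOS. Of the other libraries only HFD+AOS 1, at 91.2 FPKM, reached the range of the AOS group. The log2 fold change was 0.46 (SE 0.12, adjusted p = 0.124). Ndufb5, an accessory subunit of complex I, stood at 60.1, 62.1 and 59.4 FPKM in the controls and at 70.0, 68.3 and 75.1 FPKM with AOS. These groups did not overlap either (log2 fold change 0.23, SE 0.07, adjusted p = 0.184).

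On the diet, each treated group was compared with HFD, and the 3 comparisons share the same HFD libraries. In all 3 the median over members was above 0 while that over tested genes was below 0, at 0.06 and -0.03 for HFD+AOS, 0.08 and -0.07 for HFD+AOS-FMT, and 0.04 and -0.02 for HFD+control-FMT. No member passed the test in any of the 3, and of tested genes 0%, 0% and 0.0154% did. An unadjusted p under 0.05 was reached by 6, 8 and 8 members (6.98%, 9.3% and 9.3%) and by 15%, 13.6% and 4.63% of tested genes. With the replicate number as a block in the fit to all 18 libraries, Atp5k was called higher in HFD+AOS, beside 0.254% of tested genes. Its log2 fold change was 0.43 (SE 0.08, limma adjusted p = 0.0467), against an adjusted p of 0.214 without the block. No label pairs the replicate numbers. Same-numbered libraries of HFD+AOS and HFD correlated, but those of the groups in the other comparisons reported did not do so throughout.

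In HFD+AOS, 9 members (10.5%) had every library above every HFD library, compared with 6.42% of tested genes, and 1 member (1.16%) every library below, compared with 9.57%. The 9 included all 3 genes of ring subunit c, and the 1 below was Ndufa3. Atp5g1 stood at 149, 143 and 132 FPKM on HFD and at 193, 163 and 155 FPKM in HFD+AOS (log2 fold change 0.26, SE 0.09, adjusted p = 0.22). Ndufa3, at 274, 275 and 264 FPKM in HFD+AOS, had a log2 fold change of -0.36 (SE 0.09, adjusted p = 0.171). The median over members was 0.00 without HFD+AOS 1.

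In HFD+AOS-FMT, 20 members (23.3%) had every library above every HFD library, compared with 6.25% of tested genes. They were 7 of the 17 complex V genes, 4 of the 8 complex III genes, 4 of 18 in complex IV, 5 of 39 in complex I and none in complex II. In 5 members (5.81%) every library was below, compared with 16.7% of tested genes. Uqcr11 stood at 175, 154 and 137 FPKM, above the 87.1 to 117 FPKM of HFD (log2 fold change 0.58, SE 0.20, adjusted p = 0.265). Atp5k stood at 142, 128 and 107 FPKM, again above all HFD libraries (log2 fold change 0.48, SE 0.14, adjusted p = 0.263).

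In HFD+control-FMT, 11 members (12.8%) had every library above every HFD library, compared with 4.57% of tested genes, and 4 members (4.65%) every library below, compared with 5.59%. Atp5k, at 131, 126 and 118 FPKM, was likewise higher than on HFD in every library (log2 fold change 0.48, SE 0.14, adjusted p = 0.933). Uqcr11 stood at 163, 149 and 127 FPKM there (log2 fold change 0.50, SE 0.20, adjusted p = 0.999).

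Red cell markers were summed beside these values. Erythroid markers, 10 genes of developing red cells, summed to 756 to 1684 FPKM on HFD, 975 to 1945 in HFD+AOS, 1793 to 1846 in HFD+AOS-FMT and 979 to 1334 in HFD+control-FMT, and to 1844 to 2949 in the controls. Against control all 10 lay lower on HFD, and 6 of them were called, beside 1.3% of tested genes called lower. Against HFD none of the 10 was called in the 3 treated groups, with 2, 9 and 0 at an unadjusted p under 0.05 and medians of 0.51, 0.87 and 0.08. The part of red cell content in the members' values was not tested. With haemoglobin rows removed and the rest rescaled, the medians over members were 0.08, 0.09 and 0.03 in the order of the 3 comparisons above, and -0.10 for HFD against control.

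**Figure D4:**
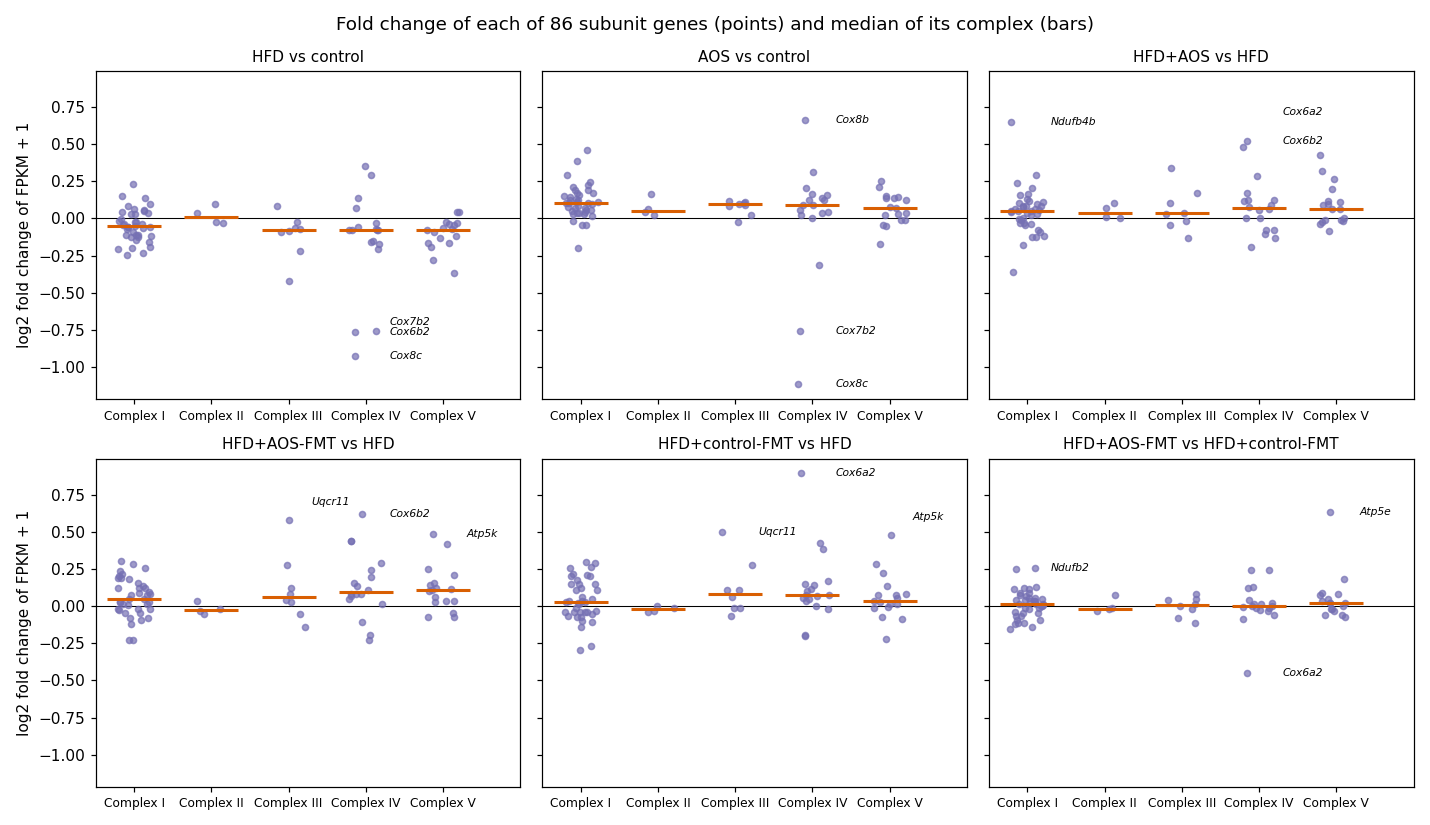
Log2 fold change of FPKM + 1 of each subunit gene (points) in 6 comparisons, by complex, with the median of the complex as a bar and the 3 largest changes named. Medians lie within 0.11 of 0 in every complex and comparison shown, and single small subunits lie further out.

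The 2 transplants were compared with each other. No member passed the test, nor did more than 0.00771% of tested genes. An unadjusted p under 0.05 was reached by 3 members (3.49%) and by 10.5% of tested genes. The median was 0.01 over members and -0.05 over tested genes. In 5 members (5.81%) every HFD+AOS-FMT library was above every HFD+control-FMT library, compared with 7.8% of tested genes, and in 1 member (1.16%), Cox6a2, every one was below, compared with 15.6%. Atp5e, the epsilon subunit in the central stalk of ATP synthase (chr2:174461072-174464105), showed the largest distance. It stood at 242, 208 and 211 FPKM in HFD+AOS-FMT and at 135, 144 and 144 FPKM in HFD+control-FMT. The latter were the lowest 3 of the 18 libraries (log2 fold change 0.64, SE 0.14, adjusted p = 0.249). Against control, at 241, 204 and 160 FPKM, HFD+control-FMT had a log2 fold change of -0.49 (SE 0.14, adjusted p = 0.0529). The difference was called with a filter at 5 FPKM, quantile normalization, haemoglobin rows removed or the replicate block. Beside it 6.83%, 3.87%, 3.11% and 11.3% of tested genes were called. It was not called with the other pseudocounts, no filter, median ratios, the length adjustment, groups alone or no trend. With 1 library left out, it was called only without HFD+AOS 1 or control 3.

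Whether AOS acted differently on the 2 diets was tested as an interaction. No member passed (0% of tested genes); 3 members (3.49%) and 15.9% of tested genes had an unadjusted p under 0.05. The median was -0.03 over members and -0.09 over tested genes, and the former was 0.07 with median ratio scaling and 0.05 with haemoglobin rows removed. Ndufs8 had the lowest estimate, at -0.41 (SE 0.16, adjusted p = 0.261), and Ndufa3 followed at -0.40 (SE 0.12, adjusted p = 0.221). An F test over the 6 groups called no member and 0.116% of tested genes, with 9 members (10.5%) and 22% of tested genes at an unadjusted p under 0.05.

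Cox6a2 was the member nearest to that threshold (adjusted p = 0.0502). It encodes the form of subunit 6a of complex IV that is known from heart and skeletal muscle, and its transcripts are also listed among those of mouse plasmacytoid dendritic cells (chr7:128205435-128206387). It stood at 4.33, 4.54 and 5.28 FPKM in the controls, 3.73, 6.01 and 6.21 with AOS, and 7.27, 4.28 and 6.76 on HFD. It stood at 9.71, 7.75 and 8.78 FPKM in HFD+AOS, 9.15, 6.99 and 9.47 in HFD+AOS-FMT, and 11.95, 14.2 and 10.1 in HFD+control-FMT. The HFD+control-FMT libraries were the highest 3 of the 18. Its share of Cox6a transcripts was 1.01% ± 0.263 (SD, n = 3) in control and 2.49% ± 0.281 (SD, n = 3) in HFD+control-FMT, while the general form Cox6a1 was called in no comparison.

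Against control, Cox6a2 rose in HFD+control-FMT by 1.18 on the log2 scale (SE 0.19, limma adjusted p = 0.0157), in a comparison that called 2 members (2.33%, the other being Cox8c) and 5.13% of tested genes. It also rose in HFD+AOS, by 0.77 (SE 0.19, adjusted p = 0.0473), as the only member called beside 2.09% of tested genes. In HFD+AOS-FMT no member was called (0% of tested genes), and 2 members (2.33%) and 11.6% of tested genes had an unadjusted p under 0.05. The log2 fold change of Cox6a2 there was 0.73 (SE 0.19, adjusted p = 0.249). With each of the 18 libraries left out in turn, the call in HFD+control-FMT held in 15 cases, and the adjusted p was above 0.05 without control 1, HFD+control-FMT 1 or HFD+control-FMT 2 (highest adjusted p = 0.08995). The call in HFD+AOS held in 7 of 18 cases (highest adjusted p = 0.137) and in 4 of 11 other settings (highest adjusted p = 0.151).

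Marker genes were read beside Cox6a2. Of 11 striated muscle markers 10 have rows, 8 of these stayed under the level for testing, and all 10 together summed to 4.21 to 5.73 FPKM in control and 5.16 to 7.07 in HFD+control-FMT. A list of 6 plasmacytoid dendritic cell genes, added after values were seen, summed to 132 to 179 FPKM in control, 164 to 201 with AOS, 184 to 252 on HFD, 171 to 330 in HFD+AOS, 190 to 208 in HFD+AOS-FMT and 217 to 306 in HFD+control-FMT. The 6 genes did not share 1 order of groups. Spib, the most abundant, stood at 123.25 ± 31.1 FPKM (SD, n = 3) in control, 171 ± 26.8 on HFD, 139 ± 29.9 in HFD+AOS and 160.0 ± 9.21 in HFD+control-FMT. Klk1 stood at 14.2 ± 12.2 in control and 89.2 ± 77.8 in HFD+AOS, where its libraries ran from 15.3 to 170.4. Siglech, a surface receptor known from those cells, stood at 9.31 ± 1.78 FPKM (SD, n = 3) in control, 14.9 ± 3.74 with AOS and 17.0 ± 5.57 on HFD. It stood at 23.1 ± 4.04 in HFD+AOS, 19.3 ± 2.53 in HFD+AOS-FMT and 26.5 ± 3.44 in HFD+control-FMT. Runx2 stood at 2.27 ± 0.327 in control and 4.52 ± 0.491 in HFD+control-FMT, Ccr9 at 3.03 ± 1.45 and 5.45 ± 0.508, and Pacsin1 at 3.52 ± 0.525 and 7.07 ± 1.73. These and Siglech had their highest group mean in HFD+control-FMT, Spib on HFD and Klk1 in HFD+AOS. Group means of Siglech and Runx2 ran in the same order as those of Cox6a2. The part of plasmacytoid dendritic cells in the values of Cox6a2 was not tested. The gene overlaps Itgad on the other strand, with 70 of its 680 exon bases in common. Itgad was highest in HFD+AOS (17.4 ± 1.64 FPKM, SD, n = 3) and stood at 10.8 ± 1.56 in HFD+control-FMT and 10.1 ± 2.36 in control. The part of Itgad reads in the values of Cox6a2 was not tested.

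Cox8c, the form of subunit 8 known from testis, stood at 0.83, 3.56 and 0.22 FPKM in the controls, at 0.22, 0.22 and 0 on HFD, and was listed at 0 in the other 12 libraries. Control 2 alone lifted the control group, and without it the gene falls under the level for testing. Its log2 fold change in HFD+control-FMT against control was -1.12 (SE 0.31, limma adjusted p = 0.0478), but since the gene was taken through its control values, this value is a description and no test. It stayed under 0.05 in 1 of 17 fits with a library left out (highest adjusted p = 0.155) and in 5 of 10 other settings. Cox7b2, another testis form, stood at 3.12 FPKM in control 2 and at no more than 0.19 FPKM in any other library. The 7 testis markers, among them the protamines, summed to 278 FPKM in control 2, 33.03 in control 1 and 17.4 in control 3, to 15.5 in HFD+AOS-FMT 2 and to no more than 6 FPKM in the other 14 libraries.

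Cox6b2, the testis form of subunit 6b, was present in every library. It stood at 51.7, 34.4 and 18.2 FPKM in the controls, 23.8, 35.8 and 19.3 with AOS, and 29.7, 15.3 and 13.7 on HFD. It stood at 39.7, 25.4 and 19.2 FPKM in HFD+AOS, 30.0, 29.8 and 27.1 in HFD+AOS-FMT, and 21.6, 21.6 and 30.6 in HFD+control-FMT. The F test over groups did not call it (adjusted p = 0.596). In each of the 6 groups the library with the largest haemoglobin share was also the highest in Cox6b2, and in 4 of 6 groups the whole order was the same. This was not particular to Cox6b2. Ndufb10 had the same 2 counts, and Cox4i1 had 5 groups for each. The whole order was the same in at least 4 groups for 16.3% of members and 4.31% of tested genes. The part of testis transcripts and of red cell content in the values of Cox6b2 was not tested.

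**Figure D5:**
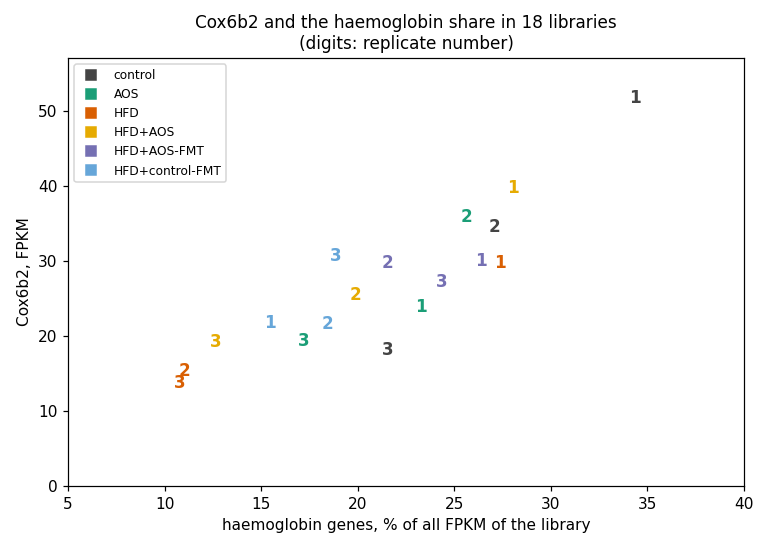
Cox6b2 in FPKM against the share of haemoglobin genes in all FPKM of the library, for 18 libraries. Digits are replicate numbers and colours are groups. Within each group the library with the largest haemoglobin share holds the most Cox6b2, but between groups this order does not hold throughout. The libraries run from 13.7 FPKM at 10.8% to 51.7 FPKM at 34.4%.

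Members were also divided by transcript length. Of the members averaging 10 FPKM or more, 37 had a longest annotated transcript under 1000 bases and 40 a longer one, with median SDs of 0.142 and 0.119. Their median log2 fold changes were -0.09 and -0.03 for HFD against control and 0.10 and 0.03 for HFD+AOS-FMT against HFD. The part of transcript length or RNA quality in these values was not tested. With log2 values adjusted for transcript length, the median over members for HFD against control was -0.04.

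Lists of other genes of the pathway were read beside all tested genes, of which 0% to 5.13% were called in the 11 tests. No gene was called among 78 mitochondrial ribosomal proteins, which translate the mitochondrially encoded subunits, in any of the 11 tests. Their median log2 fold change was 0.01 for HFD against control and 0.11 for AOS against control, with 68 of 78 above 0 with AOS. On HFD 6 of them had an unadjusted p under 0.05, beside 28.6% of tested genes. Of all tested genes 62.4% lay above 0 with AOS. Cytosolic ribosomal proteins, outside this pathway, had a median of 0.17 there, with 76 of 77 above 0. Of these 31 had an unadjusted p under 0.05, beside 15.4% of tested genes, and none was called. Assembly factors of complexes I and IV, 14 and 20 genes, had no call either. Their medians for HFD against control were 0.04 and 0.03. An unadjusted p under 0.05 was reached there by 1 and 2 genes, beside 28.6% of tested genes. Of 14 tricarboxylic acid cycle enzymes, Fh1, the fumarase, rose in HFD+control-FMT against control by 0.24 (SE 0.06, limma adjusted p = 0.0472), and no other was called in any comparison. Of 15 tested regulators of mitochondrial gene expression, among them Nrf1, Gabpa and Yy1, only Polrmt, the mitochondrial RNA polymerase, was called. It rose in the same comparison by 0.40 (SE 0.09, limma adjusted p = 0.0316). This comparison called 5.13% of tested genes. The 14 glycolysis genes and 16 electron carriers and nucleotide exchangers held no call in any of the tests. At an unadjusted p under 0.05 they counted between 0 and 8 and between 0 and 3 genes, beside 4.63% to 28.6% of tested genes. The 8 glycolysis genes were those of HFD+AOS-FMT against HFD+control-FMT, where 12 of 14 lay below 0 and the median was -0.20. Of tested genes 10.5% had such a p there, and 34.7% lay above 0, with a median of -0.05.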

How the data were processed

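RNA of 18 spleens was sequenced as described in the report. Per the submitters' processing notes, reads were aligned with Bowtie 0.12.2 to mm10; the sources used here name no counting program, annotation, filter or strand. The deposited table holds values read as FPKM, since value times transcript length sums alike in all libraries (coefficient of variation 0.785%, against 7.55% for column totals); RPKM would do the same. Columns were matched to samples by group code and number. Absolute depth is unknown, so no counting error is given.

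Values were analysed as log2(FPKM + 1). The 12969 genes with a group mean of at least 1 were fitted with limma 3.58.1 (trend, robust variance; statmod 1.5.0; R 4.3.3) in 1 model of 6 groups, with Benjamini-Hochberg adjustment within each comparison at 0.05. The script was tested on simulated data. Figures and summaries used Python 3.11.15, pandas 2.3.3 and matplotlib 3.10.9. Annotation came from GENCODE vM21 (84 of 86 members matched) and RefSeq promoters. The members and lists were chosen with earlier results of these data known. Named members were those called, up to 10 per comparison, or the 3 with the smallest p; per complex the highest, the lowest and the most variable; core subunits; and tissue-restricted forms. Others were named after their values were seen.

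Alternatives were other pseudocounts, filters, scalings, variance settings, pairwise fits, a length adjustment, a replicate block and leaving out each library. Replicate numbers were checked as pairs: residuals of same-numbered libraries of HFD+AOS and HFD correlated at 0.236, 0.268 and 0.191, above 0.1 in all 3 pairs, and in no other pairwise comparison reported did all pairs pass. Those of control and AOS correlated at -0.35, the lowest value of all, 0.0837 and 0.00146. Among groups not compared directly, AOS and HFD+AOS passed (0.493, 0.388 and 0.318). So did AOS and HFD+AOS-FMT (0.258, 0.332 and 0.164), and HFD+AOS and HFD+control-FMT (0.61, 0.533 and 0.207). The block was fitted to all 18 libraries nonetheless, so its calls rest on a pairing that no label gives and that only some pairs of groups showed.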

Additional observations from a re-analysis of the deposited data

How the results depend on the processing

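Each value was recomputed with pseudocounts of 0.1 and 0.5, no filter or a group mean of at least 5, median ratio scaling, quantile normalization, haemoglobin rows removed, a length adjustment, groups compared alone, no trend or robust variance, a replicate block, and each library left out. No named member's fold change changed sign. In HFD+AOS against control the 1 called member became 2 with a pseudocount of 0.1, the other being Cox8c, beside 2.39% of tested genes. The count was 0 with no filter, median ratios, quantiles, haemoglobin rows removed, groups alone or no trend. Of tested genes 1.09%, 1.12%, 1.43%, 1.71%, 0.00771% and 1.9% were called there. With the length adjustment it stayed 1, beside 2.12% of tested genes, but Cox8c, lower and taken through its control values, took the place of Cox6a2. In HFD+control-FMT against control the 2 became 1 with no filter or median ratios, 0 with groups alone and 4 with the replicate block. Of tested genes 2%, 3.2%, 0.0154% and 11.3% were called in these settings. The count stayed 2 with the filter at 5, quantiles or haemoglobin rows removed (6.83%, 3.87% and 3.11% of tested genes), but Atp5e took the place of Cox8c. The replicate block gave 2 in HFD against control, 1 in HFD+AOS against HFD and 2 in the F test. Beside these, 14.2%, 0.254% and 1.62% of tested genes were called. In the F test pseudocounts of 0.1 and 0.5 and the filter at 5 gave 1 each, beside 0.278%, 0.262% and 0.382%. The median over members for HFD+AOS-FMT against HFD was 0.15 with median ratios.

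With 1 library left out, calls ranged from 0 to 14 in HFD against control, 0 to 1 in AOS against control, 0 to 3 in HFD+AOS against control, 0 to 2 in HFD+AOS-FMT against control, 0 to 6 in HFD+control-FMT against control and 0 to 4 in the F test. All 6 of these highest counts came without control 3, where 29.3%, 2.33%, 10.2%, 4.62%, 23.8% and 8.13% of tested genes were called in the same order, and the other comparisons stayed at 0. Each of the 6 counts includes Cox8c, and in AOS against control Cox8c was the only member called. Since it was taken through its control values, its part in these counts is a description and no test. Median log2 fold changes over members then ranged from -0.17 to 0.00 (HFD against control), -0.03 to 0.16 (AOS), -0.12 to 0.07 (HFD+AOS), -0.10 to 0.09 (HFD+AOS-FMT) and -0.13 to 0.07 (HFD+control-FMT) against control. Against HFD they ranged from 0.00 to 0.10 (HFD+AOS), 0.04 to 0.09 (HFD+AOS-FMT) and 0.02 to 0.08 (HFD+control-FMT). They ranged from -0.04 to 0.06 for HFD+AOS-FMT against HFD+control-FMT and -0.12 to 0.07 for the interaction. The cause of these shifts was not tested. Depth is unknown, so what it limits cannot be given.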
